A study of Mus musculus with 2 samples.

Results

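Small nucleolar RNA (snoRNA) host genes are genes whose introns carry snoRNAs, the short guide RNAs of the nucleolus. Of the 6 listed host genes, Snhg1, Snhg3, Snhg6, Snhg8, Snhg12 and Gas5, only Snhg6 and Snhg12 had a row in both deposited tables, among 14366 genes in all. The other 4 are not analysed here. The members were selected on results of these same cells, since the difference of Snhg6 between the treatments was already known when the list was drawn up. Differences between the treatments are therefore given as descriptions.

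The cells were hematopoietic stem cells (HSC) sorted as Lin−Sca-1+c-Kit+CD150+CD48− from the pooled bone marrow of 8 wildtype C57/B6 mice aged 6 to 8 weeks. They were cultured for 48 h in Myelocult M5300 with supplements that included 100 ng/ml SCF, the cytokine stem cell factor. One culture received 10 µM DFO (deferoxamine, an iron chelator) and the other sterile water as the vehicle. Droplet libraries of transcript 3′ ends were then made from 20000 live cells of each culture. There was 1 library per group, so no test of the treatment was possible, and every interval is a 95% interval for counting error only.

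The vehicle library held 8708 cells with a median of 27806 molecules (UMIs) per cell, and the DFO library 9852 cells with a median of 27114. The 2 libraries shared 24 cell barcodes. Of the 21 HSC markers looked for, 18 were at 5 or more CPM (molecules per 1000000 molecules of a library), and some differed between the libraries (Ly6a from 83.9 to 111.2 CPM, Vwf from 6.84 to 4.17 CPM). Markers of the megakaryocyte lineage were also present, at a sum of 2124 CPM with vehicle and 1119 CPM with DFO over the 10 markers at 5 or more CPM. Each of these 10 was lower with DFO. None of the 12 megakaryocyte markers with a row was at 0.

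A snoRNA is released from the intron of its host after splicing and is packed with core proteins into a ribonucleoprotein. Box C/D snoRNAs guide ribose methylation and box H/ACA snoRNAs guide pseudouridylation, mainly of ribosomal RNA. The spliced remainder of a noncoding host transcript reaches the cytoplasm. Many such transcripts begin with a run of pyrimidines like that of ribosomal protein messengers, and many are broken down by nonsense-mediated decay when translated. A count of molecules from a host gene measures this polyadenylated remainder, not the snoRNA.

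On the mm10 build, Snhg6 is a long intergenic noncoding RNA gene at chr1:9941959-9944118 on the minus strand, with 5 annotated transcripts of 2 to 4 exons. It carries Snord87, a box C/D snoRNA at chr1:9942463-9942549, which lies in an intron of all 5 transcripts. Snhg12, also a long intergenic noncoding RNA gene, lies at chr4:132308623-132311024 on the plus strand, with 10 transcripts of 2 to 5 exons. It carries the box H/ACA snoRNAs Snora16a, Snora44 and Snora61 and the box C/D snoRNA Snord99, at chr4:132310691-132310764. Of the 5 guide RNAs, the 3 in which both boxes of their class could be marked are printed here, to show what these introns carry. Within the windows searched, a box H but no ACA was found in Snora44. In Snora16a ACA was found, but the box H pattern had no unique match, so no box H was marked. Sequences are those of GENCODE M21 (5′ to 3′). Capitals mark the boxes found: TGATGA (box C) and CTGA (box D) in the first 2, and AGAGCA (box H) and ACA in the third.
Snord87: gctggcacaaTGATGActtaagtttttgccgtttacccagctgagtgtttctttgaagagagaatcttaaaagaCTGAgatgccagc
Snord99: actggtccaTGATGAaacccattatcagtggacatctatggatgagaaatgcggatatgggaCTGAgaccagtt
Snora61: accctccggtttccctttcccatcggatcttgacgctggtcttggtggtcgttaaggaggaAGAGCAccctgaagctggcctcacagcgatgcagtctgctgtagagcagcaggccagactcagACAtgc
Of 98 annotated mouse RNAs of the Snord family, 69.4% held TGATGA in the first 20 bases and CTGA in the last 20, so the boxes describe the class and not these 2 members. Of 42 annotated Snora RNAs, 95.2% held ACA in the last 10 bases.

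The transcripts Snhg6-203 and Snhg12-204 began with the same 7 pyrimidines. Their first 30 bases are shown with that run in capitals.
Snhg6-203: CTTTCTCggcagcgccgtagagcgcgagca
Snhg12-204: CTTTCTCgcttcatccgcggtccctgtctg
A start at C with an unbroken run of at least 5 pyrimidines was annotated for 1 of the 5 Snhg6 transcripts and 3 of the 10 Snhg12 transcripts. The same start was found in 2.02% of 141767 annotated transcripts and in 12.8% of 219 coding transcripts of ribosomal protein genes. The shared run of 7 opened 23 of all annotated transcripts. A match of letters is no evidence of regulation, and annotated starts can differ by a base, as in Snhg6-204, which begins 1 base later with T.

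**Figure D1:**
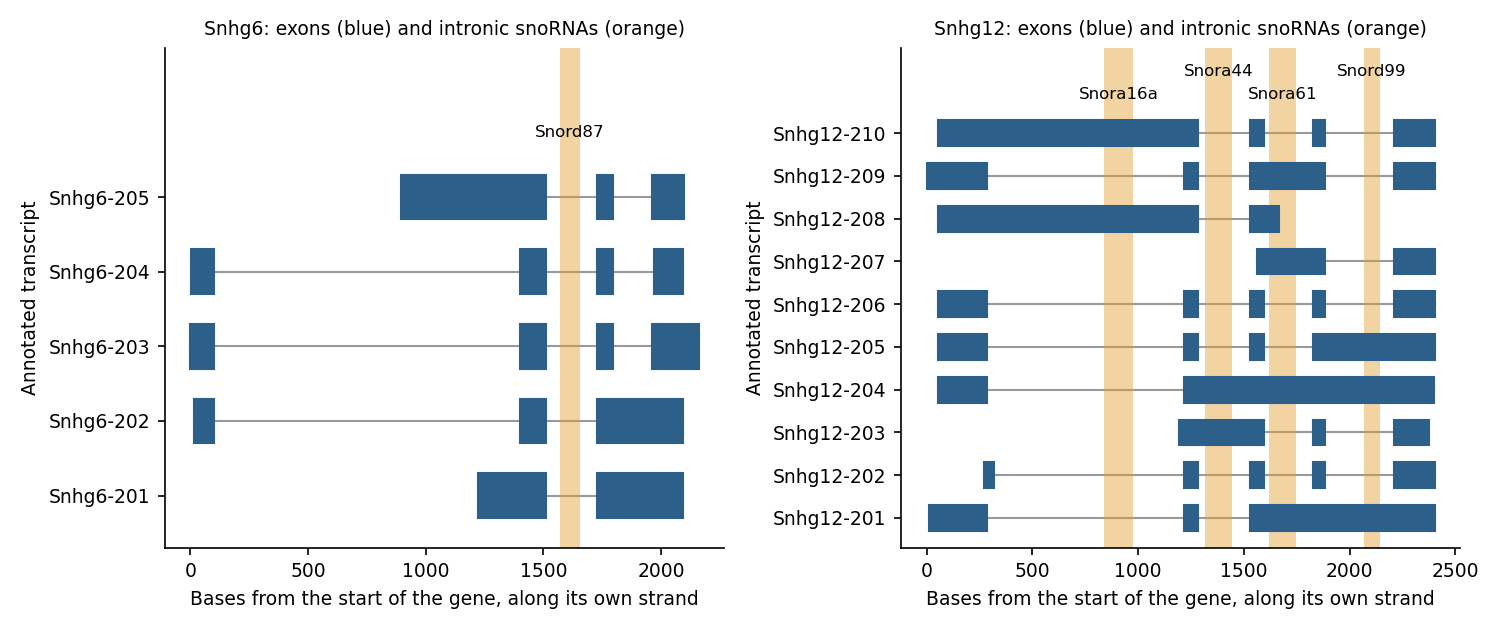
Annotated transcripts of Snhg6 (left) and Snhg12 (right), drawn along each gene's own strand in bases from its start; blue boxes are exons, lines are introns and orange bands are snoRNAs. Snord87 falls in an intron of all 5 Snhg6 transcripts, whereas each Snhg12 snoRNA is covered by an exon of at least 1 of the 10 Snhg12 transcripts.

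Snhg6 gave 5204 molecules in the vehicle library and 7748 in the DFO library. These were 19.9 CPM (19.4 to 20.5) and 27.3 CPM (26.6 to 27.9), and the intervals did not overlap. Snhg6 was thus 1.37 times as high with DFO (1.32 to 1.42), a difference of 0.43 on the log2(CPM + 1) scale. Snhg12 gave 13009 and 16720 molecules, or 49.9 CPM (49.0 to 50.7) with vehicle and 58.8 CPM (57.9 to 59.7) with DFO. Its intervals did not overlap either, and it was 1.18 times as high with DFO (1.15 to 1.21), a log2 difference of 0.23.

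Among the 7476 genes at 10 or more CPM in either library, the median log2 difference was 0.02, and 1.24% of genes were higher with DFO by 0.25 or more. A further 2.31% were lower by as much. Snhg6 stood 5th from the top of the 7476 and Snhg12 stood 116th, just under the limit of 0.25. Genes beside that limit were Spr (0.251) above it and Gpr171 (0.2497) below it. Since the difference of Snhg6 was known when the genes were listed, its place near the top was fixed by that choice.

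**Figure D2:**
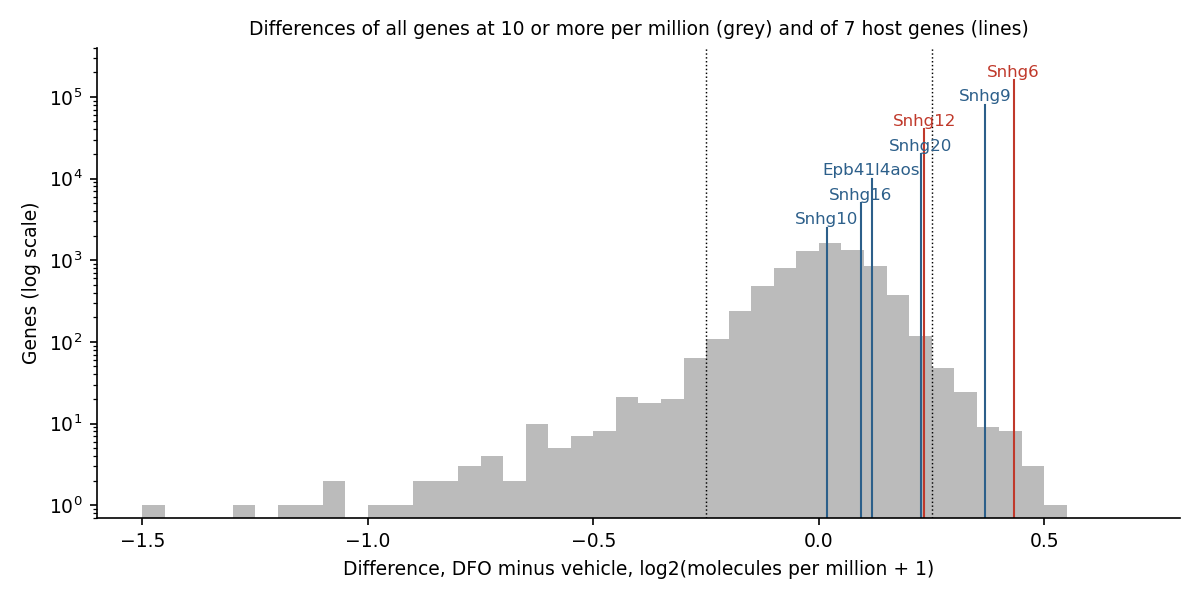
Difference between the libraries, DFO minus vehicle, on the log2(CPM + 1) scale for 7476 genes (grey bars, number of genes on a log axis), with lines for Snhg6 and Snhg12 (red) and 5 further noncoding host genes (blue). Dotted lines mark a difference of 0.25 in either direction; Snhg9 and Snhg10 were under 10 CPM and are not among the grey genes.

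Per cell, both transcripts were sparse. Without adjustment for depth, 43.1% of vehicle cells and 51.6% of DFO cells had at least 1 Snhg6 molecule, and 68.2% and 73.0% had at least 1 Snhg12 molecule. After each cell was thinned to 10000 UMIs, leaving out 351 and 433 shallower cells, Snhg6 was found in 18.0% (17.2 to 18.9) of the vehicle library and 23.7% (22.9 to 24.6) of the DFO library. Snhg12 was found in 38.2% (37.2 to 39.3) and 42.5% (41.5 to 43.5). No cell type in these cultures is known to lack the genes, so the share that free RNA would give was not measured.

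The spread of molecules over cells was set against that of a Poisson count. For Snhg6 the variance of thinned molecules was 1.03 times the mean with vehicle and 1.00 times with DFO, where a ratio of 1 is that of a Poisson count. For Snhg12 the ratio was 1.11 and 1.12. The highest thinned Snhg6 count in a cell was 4 with vehicle and 3 with DFO, against 6 and 11 for Snhg12. Snhg12 was the more abundant, with a thinned mean of 0.51 molecules per vehicle cell against 0.20 for Snhg6. Genes of matched level were not compared, so whether the 2 genes differed in spread beyond their level was not tested. In both libraries most cells held 0 or 1 molecule of either transcript, which limits what can be read from single cells.

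**Figure D3:**
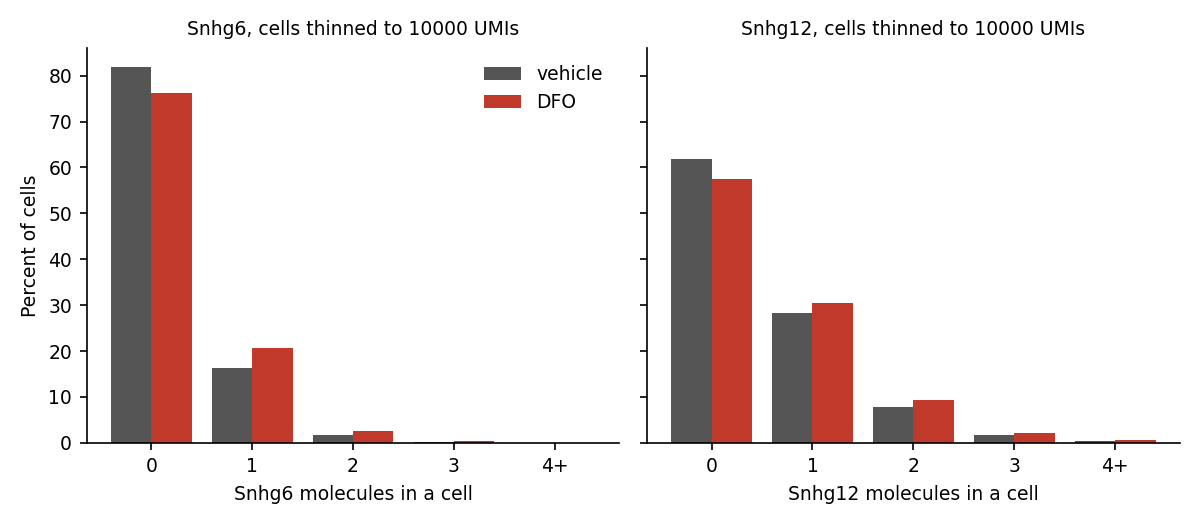
Percent of cells (vertical axis) with 0, 1, 2, 3 or 4 and more molecules of Snhg6 (left) and Snhg12 (right) after thinning to 10000 UMIs, for vehicle (grey) and DFO (red). Cells without Snhg6 made up 82.0% with vehicle and 76.3% with DFO.

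The cells were grouped into 8 clusters without the use of the listed host, ribosome biogenesis, S phase and G2/M genes or the ribosomal protein genes. Other cell cycle genes were not left out. The median score for the G2/M genes still ran from -0.13 in cluster 4 to 0.58 in cluster 7. Cluster 3 was megakaryocyte-like, with Cavin2, Pf4, Clec1b and Treml1 among its 10 leading genes. Cluster 5 was neutrophil-monocyte-like, with Mpo and Ctsg among them. The other clusters are called by number: mitosis genes such as Nusap1 and Ube2c led cluster 0, Gata1 and Klf1 were among the leading genes of cluster 2, and Il1rl1 and Gna14 of cluster 7. Cluster 6 was shallow, at a median of 6949 UMIs per cell and with 6.85% mitochondrial molecules. Clusters held different shares of the 2 libraries, cluster 3 for example 17.7% of vehicle cells and 11.0% of DFO cells.

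Snhg6 was nearly level across clusters with vehicle, from 18.6 CPM (16.2 to 21.1) in cluster 7 to 25.8 CPM (21.1 to 31.3) in the shallow cluster 6. In the other 6 clusters it lay between 18.7 and 20.9 CPM, with overlapping intervals. With DFO it was higher in all 8 clusters, and the intervals of the libraries did not overlap in 7 of them. In the megakaryocyte-like cluster 3 the level was 20.7 CPM (19.6 to 21.9) with vehicle and 29.5 CPM (27.8 to 31.2) with DFO. In the neutrophil-monocyte-like cluster 5 the levels were 19.8 CPM (18.1 to 21.7) and 27.2 CPM (25.5 to 28.9). The exception was cluster 7, at 18.6 and 19.5 CPM with overlapping intervals. That cluster rests on 230 and 183 Snhg6 molecules. Of all genes at 10 or more CPM, 17.3% were higher with DFO in all 8 clusters, and 3.4% were higher without overlap of intervals in at least 7. With DFO the clusters ranged from these 19.5 CPM (16.8 to 22.5) to 38.1 CPM (32.5 to 44.4) in the shallow cluster 6, and the other 6 lay between 26.0 and 29.5 CPM.

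Snhg12 was uneven across clusters. With vehicle it was lowest in cluster 7, at 25.8 CPM (23.1 to 28.8), followed by the megakaryocyte-like cluster 3 at 38.3 CPM (36.8 to 39.9) and cluster 2 at 41.3 CPM (39.3 to 43.5). Clusters 4, 0 and 1 followed at 56.5, 56.8 and 57.4 CPM, which did not differ beyond their intervals. The neutrophil-monocyte-like cluster 5 and the shallow cluster 6 were highest, at 64.8 CPM (61.6 to 68.1) and 65.5 CPM (57.9 to 73.9). The highest cluster was above the lowest by 1.31 on the log2 scale with vehicle and by 1.23 with DFO. Such a range, at least 2-fold in both libraries, was common: 37.8% of the 7476 genes had it, and Snhg6 did not (0.45 and 0.93).

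The difference between the libraries was also uneven for Snhg12. On the log2 scale it was largest in the 3 clusters of lowest level, with 38.3 against 51.5 CPM in cluster 3 (log2 difference 0.42), 41.3 against 54.3 CPM in cluster 2 (0.38) and 25.8 against 32.8 CPM in cluster 7 (0.33). In cluster 4 it was 56.5 against 57.8 CPM (0.03) and in cluster 5 it was 64.8 against 66.7 CPM (0.04), with overlapping intervals. The shallow cluster 6, of the highest level, had 65.5 against 78.5 CPM (0.26), also with overlap. Clusters 0 and 1 were in between, at 0.09 and 0.14. The direction was the same in all 8 clusters, and the intervals did not overlap in 5 of them, as for 7.66% of the 7476 genes, which were higher without overlap in at least 5. With 1 library per group, whether the difference itself varied between clusters was not tested.

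**Figure D4:**
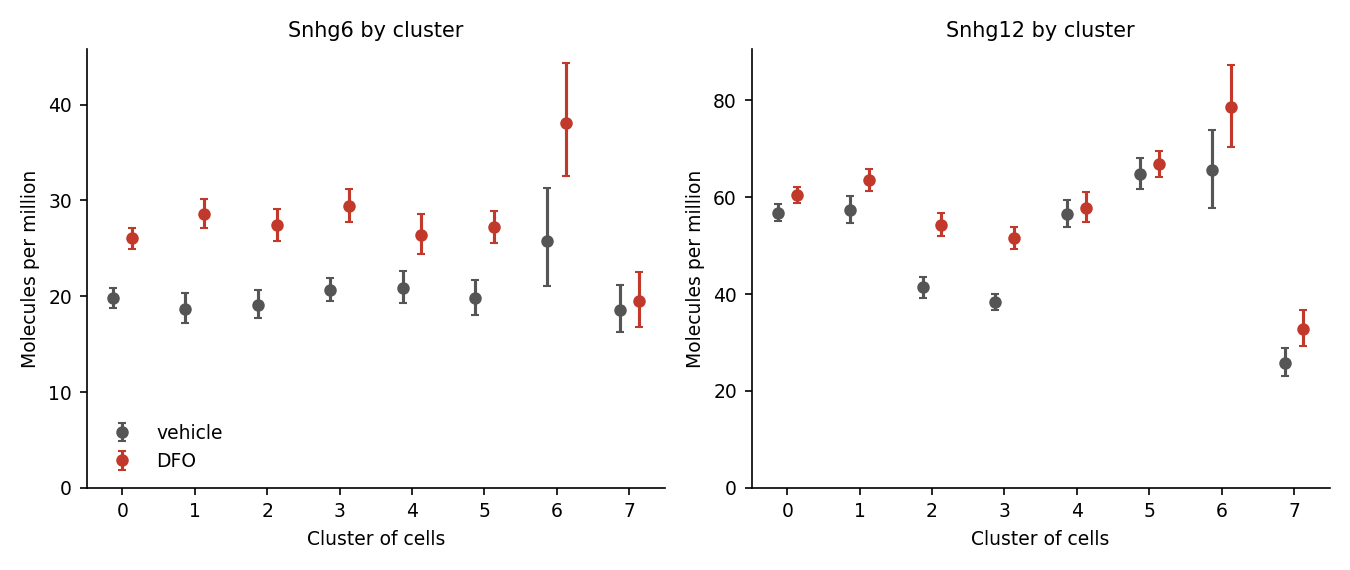
Level of Snhg6 (left) and Snhg12 (right) in CPM in each of 8 clusters, for vehicle (grey) and DFO (red); bars are 95% Poisson intervals of the molecule counts. Snhg6 is higher with DFO in all 8 clusters, and Snhg12 is lowest in clusters 2, 3 and 7.

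Clusters 2, 3 and 7 were also those with the highest summed megakaryocyte markers, at 1838, 6218 and 2106 CPM with vehicle and 1216, 4182 and 1438 CPM with DFO. Cluster 7 held less Snhg12 than cluster 3, although its megakaryocyte sum was lower. It also had the highest median score for the G2/M genes (0.58), and its relation to the low Snhg12 was not tested. In the other 5 clusters the megakaryocyte sum ran from 416 to 1214 CPM with vehicle. To follow the relation without clusters, thinned cells of each library were ordered by the sum of the 12 megakaryocyte markers and divided into quintiles, 5 groups of equal size. With vehicle, Snhg12 was at 62.0 CPM (58.2 to 65.9) in the lowest quintile and 37.6 CPM (34.7 to 40.7) in the highest. With DFO it was at 67.3 CPM (63.6 to 71.1) and 45.9 CPM (42.9 to 49.1). The log2 differences between the highest and lowest quintiles were -0.71 and -0.54. Of 7467 other genes, 12.4% were lower by 0.25 or more in both libraries, and 5.33% with vehicle and 4.43% with DFO lay below Snhg12.

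No such gradient was seen for Snhg6. It was at 20.4 CPM in the lowest and 22.2 CPM in the highest quintile with vehicle, and at 28.4 and 26.8 CPM with DFO, all with overlapping intervals within a library. When both libraries were divided at common limits, the Snhg6 difference was present in every quintile, between 0.32 and 0.60 on the log2 scale. For Snhg12 it was 0.09, 0.05 and 0.03 in the lower 3 quintiles, 0.21 in the next and 0.20 in the highest. With these quintiles weighted equally, the Snhg12 difference was 0.11, against 0.19 for the same thinned cells as they fell. The Snhg6 difference was 0.43, against 0.42. The highest of these quintiles held 27.7% of vehicle cells and 13.1% of DFO cells. Of the 6 erythroid markers at 5 or more CPM 5 were lower with DFO (median -0.35, Car2 at 0.05), as were the 3 neutrophil-monocyte markers (median -0.34). The neutrophil-monocyte-like cluster 5 held 8.69% of vehicle cells and 12.2% of DFO cells. Their part in the member differences was not tested.

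The rule also asked for the relation to ribosome biogenesis. The list of 57 ribosome biogenesis genes was measured in full, with a median log2 difference of 0.12 between DFO and vehicle, and 54 of the 57 higher with DFO. Over all 8886 genes at a mean of 5 or more CPM the median was 0.02 and 5144 were higher. Pno1, a factor of the small ribosomal subunit, was the only one past 0.25 (82.9 to 99.5 CPM, 0.26), and Utp4 followed (57.9 to 68.2 CPM, 0.23). The lowest were Rrn3, an initiation factor of RNA polymerase I (23.2 to 22.3 CPM, -0.05), and Rrp1 (218.2 to 215.8 CPM, -0.02). All 19 genes of snoRNA-protein particles and their assembly were higher with DFO, by a median of 0.13, though none by 0.25. Fbl, the methyltransferase of box C/D particles, was at 377.3 and 420.7 CPM (0.16), and Dkc1, the pseudouridine synthase of box H/ACA particles, at 184.0 and 195.8 CPM (0.09). The core proteins Nop58 (195.9 to 221.2 CPM, 0.17) and Nop56 (207.2 to 211.9 CPM, 0.03) lay near opposite ends of that list, where Shq1, an assembly factor of H/ACA particles, was highest (29.3 to 33.9 CPM, 0.20). Ncl and Npm1, abundant nucleolar proteins, were at 1796 and 2006 CPM (0.16) and at 4016 and 4192 CPM (0.06).

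Within each library, cells with more ribosome biogenesis molecules held more Snhg12. From the lowest to the highest quintile of thinned vehicle cells, Snhg12 was at 42.0, 48.0, 49.7, 50.9 and 63.4 CPM. In DFO cells it was at 48.1, 52.3, 58.3, 62.7 and 68.6 CPM. The highest quintile lay above the lowest by 0.58 and 0.50 on the log2 scale, without overlap of intervals. Of 7419 other genes, 22.5% were higher by 0.25 or more in both libraries, and Snhg12 lay above 90.8% of them with vehicle and 90.1% with DFO. Snhg6 ran from 20.9 to 20.8 CPM with vehicle and from 27.9 to 29.4 CPM with DFO, with overlapping intervals.

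**Figure D5:**
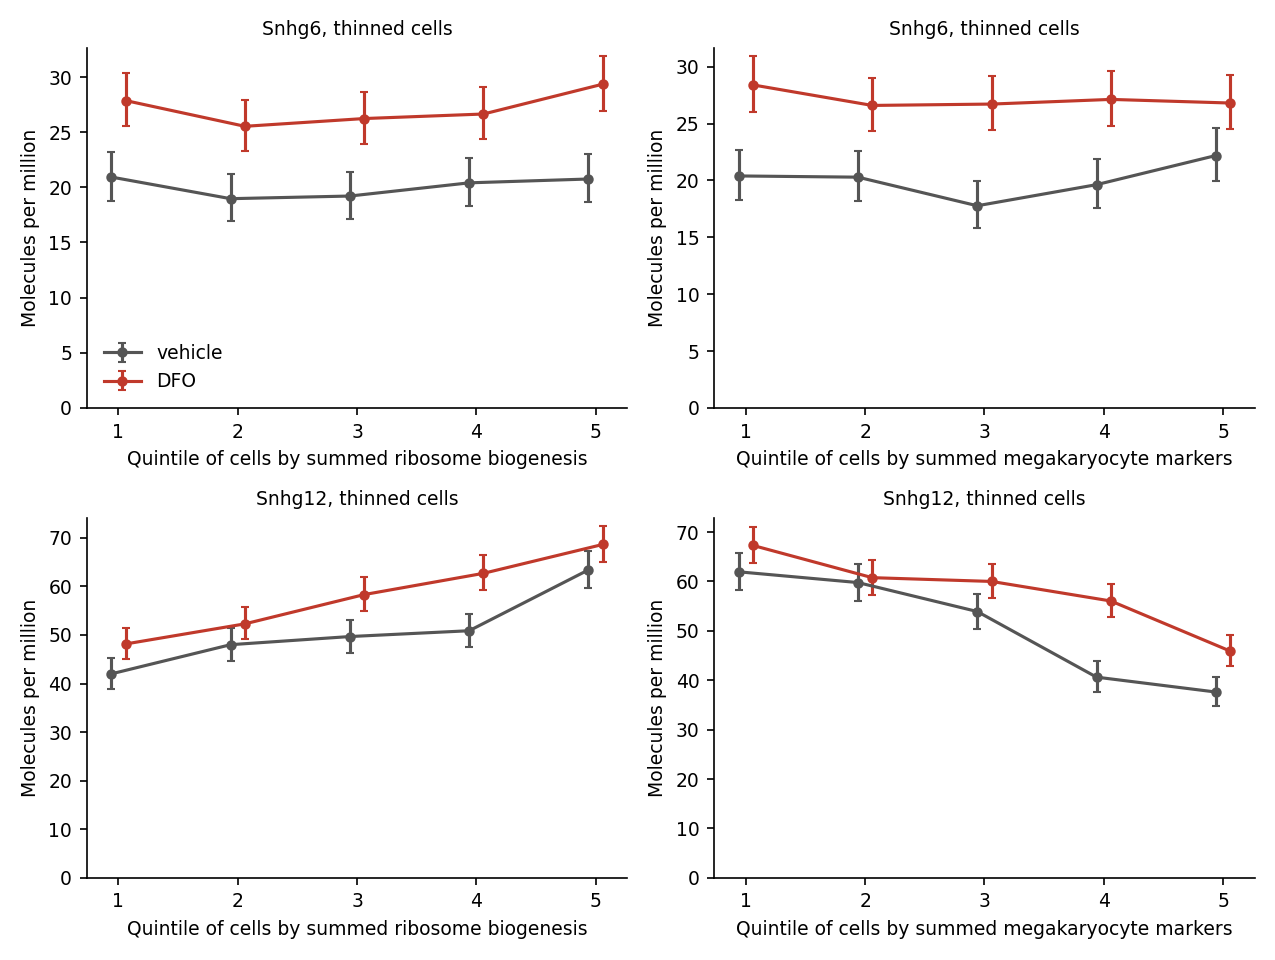
Level of Snhg6 (top) and Snhg12 (bottom) in CPM over quintiles of thinned cells, ordered within each library by the summed ribosome biogenesis genes (left) or megakaryocyte markers (right); bars are 95% Poisson intervals. Snhg12 climbs with ribosome biogenesis from 42.0 to 63.4 CPM with vehicle and declines with megakaryocyte markers from 62.0 to 37.6 CPM, while Snhg6 stays level.

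The ribosome biogenesis sum did not follow the megakaryocyte markers over clusters in the same way. In the megakaryocyte-like cluster 3 it was 12890 CPM with vehicle, the second highest of the clusters, yet Snhg12 was low there. In cluster 5 it was 13407 CPM, the highest with vehicle, and Snhg12 was high. With DFO the sum was highest in cluster 3, at 14075 CPM, against 13879 CPM in cluster 5. In cluster 6 it was lowest in both libraries, at 8073 and 8103 CPM, and Snhg12 was highest. Cluster 7 went the other way: its sum was the second lowest in both libraries, at 9229 and 9925 CPM, and Snhg12 was lowest there. At common limits for both libraries, equal weight to the quintiles by ribosome biogenesis gave a Snhg12 difference of 0.13 and a Snhg6 difference of 0.41.

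Snhg12 was not ordered by the ribosomal protein genes in the same direction. From the lowest to the highest quintile of cells by the sum of 77 ribosomal protein genes it differed by -0.27 with vehicle and -0.24 with DFO. The median of the other genes was -0.16 and -0.15. The 77 genes held 253843 CPM with vehicle and 238497 CPM with DFO. Snhg6 differed by 0.19 and 0.13. Ribosomal protein genes were themselves lower with DFO, in 58 of 77 cases, with a median log2 difference of -0.07.

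Across single cells, the correlation of the 2 host genes was close to 0. Over 8357 vehicle and 9419 DFO cells thinned to equal depth, Pearson's r between Snhg6 and Snhg12, on ln(1 + molecules), was 0.0026 and 0.013. Both transcripts were found in 6.96% of vehicle cells, and the product of their separate shares was 6.89%. With DFO the values were 10.5% and 10.1%. The r of the summed pair with the ribosome biogenesis sum was 0.087 in both libraries. These values are descriptions, since the cells of a library share a culture and its depth. How weak a link between the underlying levels could be seen at counts this low was not measured.

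The genes with the highest mean r to Snhg12 were Ncl (0.083 with vehicle, 0.077 with DFO), the histone chaperone gene Set (0.078 and 0.066) and Fkbp1a (0.095 and 0.048). The lowest were Pf4, a platelet chemokine (-0.12 and -0.076), Tmsb4x (-0.098 and -0.078) and Cd9 (-0.088 and -0.069). For Snhg6 they were Rps12 (0.041 and 0.031), Rpl41 (0.031 and 0.031) and Larp4b (0.033 and 0.026), where 95% of the other genes lay below 0.018 in either library. The lowest were Ubb (-0.030 and -0.054), Ctla2a (-0.028 and -0.050) and Myl6 (-0.026 and -0.049). Correlations this weak in sparse counts are no finding about these genes.

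Cell cycle phases, called from scores of S and G2/M genes, differed little in Snhg6. Of vehicle cells 1003 were scored as G1, 2510 as S and 5195 as G2/M, and of DFO cells 755, 3079 and 6018. Snhg6 was at 21.2, 20.5 and 19.6 CPM in these phases with vehicle and at 28.6, 28.2 and 26.7 CPM with DFO. Its difference between the libraries was 0.42, 0.44 and 0.43 on the log2 scale. Snhg12 was at 54.6, 52.7 and 48.3 CPM with vehicle and at 56.7, 60.2 and 58.3 CPM with DFO, so that its difference was 0.05 in G1, 0.19 in S and 0.27 in G2/M. In G1 the Snhg12 intervals of the libraries overlapped. The 42 S phase genes had a median log2 difference of 0.07 between the libraries and the 51 G2/M genes one of 0.01. Mki67, a marker of cycling cells, was at 302.5 CPM with vehicle and 285.5 CPM with DFO.

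The pool held cells of both sexes by their Xist and Y-linked molecules, which gave a split of each library that the treatment did not set. In 4751 vehicle and 5251 DFO cells called female, Snhg6 differed by 0.43 and Snhg12 by 0.24. In 2767 and 3266 cells called male, the differences were 0.43 and 0.21. Over quintiles of cells by depth, the Snhg6 difference lay between 0.38 and 0.52 and that of Snhg12 between 0.17 and 0.28. The cells of these subsets still come from the same pair of cultures and are no replicates of the treatment.

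A further 5 noncoding host genes of a wider list of 21 were measured, and with Snhg6 and Snhg12 all 7 were higher in the DFO library. Their median difference was 0.23, against 0.02 over the 8886 genes at a mean of 5 or more CPM, of which 5144 were higher. That median includes Snhg6, whose difference was known beforehand. Among the 5 further genes the middle difference was that of Epb41l4aos, 0.12. Snhg9, which carries Snora78, was at 5.74 CPM (5.46 to 6.04) and 7.71 CPM (7.39 to 8.04), a difference of 0.37. Snhg20, host of a small Cajal body RNA, was at 65.3 CPM (64.3 to 66.3) and 76.5 CPM (75.5 to 77.5), a difference of 0.23. Epb41l4aos was at 42.3 CPM (41.5 to 43.1) and 45.9 CPM (45.2 to 46.7), a difference of 0.12. Snhg16, whose row carries an older symbol and which hosts Snord1a, Snord1b and Snord1c, was at 14.0 CPM (13.6 to 14.5) and 15.04 CPM (14.6 to 15.5), a difference of 0.09. Snhg10, host of Scarna13, was at 5.14 CPM (4.87 to 5.42) and 5.21 CPM (4.95 to 5.48). Its intervals overlapped, its difference of 0.02 was that of the median gene, and it turned to -0.06 in thinned cells. Snhg10 was higher with DFO in 4 of 8 clusters, Snhg16 in 7, and Snhg9, Snhg20 and Epb41l4aos in all 8. Clusters higher without overlap of intervals numbered 8 for Snhg20, 4 for Snhg9, 1 for Epb41l4aos and 0 for Snhg10 and Snhg16. Of all genes at 10 or more CPM, 17.3% were higher in all 8 clusters, and 3.4% without overlap in at least 7. Over the 21 pairs of these 7 genes, the median r across cells was 0.0066 with vehicle and 0.0054 with DFO, and the highest was 0.038.

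Among protein-coding hosts, the ribosomal protein genes had the opposite direction. Of 28 listed hosts of both kinds, 10 were higher and 18 lower with DFO, with a median of -0.06 and none past 0.25 in either direction. Nop58 and Ncl led (0.17 and 0.16), and the ribosomal protein genes Rpl10 (1475 to 1276 CPM, -0.21) and Rpl4 (1343 to 1177 CPM, -0.19) were lowest. A further list was drawn up after the data were seen, of all annotated genes with a snoRNA or small Cajal body RNA within their bounds. The RNA had to lie on the same strand, but not in an intron. This list had 185 members at 10 or more CPM. Their median was 0.03, with 5 past 0.25 and 3 past -0.25, against 1.24% and 2.31% of all genes tested. The 5 include Snhg6, whose difference was known beforehand, and Rab26os, which reached 10 CPM only with DFO, so their number is no support. Snhg6 was first, and the other 4, named after their values were seen, were Rab26os (7.95 to 10.4 CPM, 0.35), Aven (27.6 to 33.9 CPM, 0.29), Rcc1 (66.9 to 81.4 CPM, 0.28) and Zbed3 (34.8 to 42.2 CPM, 0.27). The 30 ribosomal protein hosts among the 185 had a median of -0.09, and 2 of them were higher. Of the 148 other protein-coding hosts 100 were higher, with a median of 0.04.

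The 2 lists of genes known to act on host transcripts, and a list of targets of nonsense-mediated decay, had medians between 0.02 and 0.06. Over all 8886 genes at a mean of 5 or more CPM the median was 0.02, and 5144 were higher. Of the 7476 genes ranked above, 1.24% were higher by 0.25 or more. Of 19 nonsense-mediated decay factors, 13 were higher and 6 lower with DFO, with a median of 0.06. Magohb, a part of the exon junction complex, was the only one past 0.25 (87.0 to 106.9 CPM, 0.29), and Smg8 followed (9.45 to 10.8 CPM, 0.17). The lowest were Smg9 (21.5 to 20.2 CPM, -0.09) and Smg6 (37.4 to 35.3 CPM, -0.08). Upf1, the central helicase of the pathway, was at 68.7 and 72.1 CPM (0.07). Of 15 targets of that decay at 5 or more CPM, other than host genes, 12 were higher, from Srsf7 (541.0 to 619.5 CPM, 0.20) and Tra2b (120.8 to 133.2 CPM, 0.14) down to Gadd45b (6.58 to 5.65 CPM, -0.19) and Ddit3 (6.33 to 4.89 CPM, -0.32), with a median of 0.04. The 16 regulators of pyrimidine-run messengers had a median of 0.02, between Mlst8 (7.79 to 8.62 CPM, 0.13) and Rheb (183.6 to 200.2 CPM, 0.12) at the top and Larp1b (35.7 to 32.9 CPM, -0.11) and Mtor (15.7 to 14.6 CPM, -0.10) at the bottom. Between the highest and lowest quintiles of cells by molecules of decay factors, Snhg6 differed by -0.25 with vehicle and -0.19 with DFO on the log2 scale, and Snhg12 was at 0.13 and 0.10. The intervals of the lowest and highest quintiles overlapped in all 4 cases.

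Myc, the transcription factor known to drive ribosome biogenesis, was at 91.9 CPM (90.8 to 93.1) with vehicle and 107.5 CPM (106.3 to 108.8) with DFO, a difference of 0.22. Among its network Mga was at 50.3 and 53.2 CPM (0.08), Mxd4 at 15.3 and 12.1 CPM (-0.32) and Mxd1 at 5.75 and 5.34 CPM (-0.09). Of the 9 growth arrest and p53 target genes at 5 or more CPM, 6 were lower, Btg2 the furthest (19.0 to 11.8 CPM, -0.64), followed by Gas2l1 (7.55 to 6.38 CPM, -0.21). Bax (0.08) and Cdkn1a (0.05) were highest, and the median of the 9 was -0.09. Over all 8886 genes at a mean of 5 or more CPM the median was 0.02, and 5144 were higher.

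Of the 4 nearest genes, 3 were measured. Mcmdc2 overlaps the end of Snhg6 by 127 bases on the opposite strand and gave 46 and 59 molecules, or 0.18 CPM (0.13 to 0.24) and 0.21 CPM (0.16 to 0.27). Tcf24, on the other side of Snhg6, is not analysed here. Snhg12 is followed after 738 bases by Trnau1ap, on the opposite strand, at 102.3 CPM (101.1 to 103.6) with vehicle and 111.8 CPM (110.5 to 113.0) with DFO (0.13), without overlap. Rab42, 5237 bases before Snhg12, gave 209 and 241 molecules, at 0.80 and 0.85 CPM.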

How the data were processed

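Each of the 2 tables gave natural log values for 14366 genes per cell. The submitters' processing notes name FastQC 0.11.9, Trim Galore 0.6.5, Cell Ranger 3.0.2 and the mm10 build; how the authors scaled the deposited natural log values is not given there. Every nonzero deposited value was ln(1 + 27408 × molecules / cell total), and all came back as whole molecules within 0.05. Molecules were summed per library or group of cells and given per 1000000 (CPM), with exact Poisson intervals for molecules, exact conditional binomial intervals for ratios and exact Clopper-Pearson intervals for shares. Differences used log2(CPM + 1). Cells were thinned to 10000 UMIs at random for shares, quintiles and correlations. Clusters came from scanpy 1.11.5 and leidenalg 0.10.2 (2000 variable genes, 30 components, 15 neighbours, resolution 0.5); a cluster was named only where at least 2 of its 10 leading genes were markers and the list's sum was highest there. No doublet caller was run: cells with both sexes' markers (211 and 335) and the deepest 5% were left out as an alternative. Genes were placed with GENCODE M21; 1 host was matched through RefSeq synonyms. Formulas were tested on simulated data. Members and lists were chosen with earlier results of these data known. Genes named are the members, the other measured noncoding hosts, the 2 highest and 2 lowest of each list, neighbours, the 3 most correlated genes per member and a fixed set of nucleolar and cycle genes. An item of the culture protocol is not reported here.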

Additional observations from a re-analysis of the deposited data

How the results depend on the processing

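Snhg6 and Snhg12 were higher with DFO under all 14 alternatives, by 0.32 to 0.45 and by 0.11 to 0.24 on the log2 scale. These alternatives reuse the same 2 libraries, and the difference of Snhg6 was known beforehand, so they are no independent support. The summed difference of 0.30 was 0.26 in thinned cells, 0.27 with a pseudocount of 10 and 0.26 at equal cluster shares. In alternatives chosen after seeing the data, it was 0.22 at equal quintiles by ribosome biogenesis and 0.21 at equal quintiles by megakaryocyte markers. Of the 2 members, 1 was past 0.25, against 2 at a limit of 0.1 and 0 at 0.5. Of the 7476 genes, 1.24% were past 0.25, 843 lay between 0.1 and 0.15 alone, and 1 was past 0.5. The member past 0.25 was Snhg6, so these counts are no support. The correlation of the 2 members went from 0.0026 to -0.0049 in G1-scored vehicle cells, and from 0.013 to 0.037 with unthinned counts and 0.043 in G1-scored cells of the DFO library. With ribosome biogenesis, the r of 0.087 was 0.12 (vehicle) and 0.11 (DFO) with unthinned counts and 0.019 in G1-scored vehicle cells. The highest cluster lay above the lowest in the summed members by 1.11, against 0.59 at resolution 0.25, 0.95 at resolution 1 and 1.26 in thinned cells. G2/M-scored against G1-scored cells gave -0.16 with vehicle and -0.0048 with DFO, the latter 0.031 when thinned. The causes of these shifts were not tested. Unthinned counts were not adjusted for each cell's depth. No paired analysis was possible because each group has 1 library. With 1 library per group, differences between cultures cannot be told apart from the treatment. Depth limited single cells, where most held 0 or 1 molecule of a member.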
